A study of Mus musculus with 12 samples.

Results

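Tgfbr2 KO microglia were compared with WT macrophages of the central nervous system (CNS) across all genes, using the 6 libraries that the sample titles place in these groups, 3 on each side, of 12 libraries in the study. The pairing sets resident cells that have lost a receptor beside incoming cells that have kept it, so that the cells' origin and their Tgfbr2 genotype change together. RNA was sequenced from sorted C57BL/6 mouse cells of 4 groups with 3 libraries each, and WT microglia and Tgfbr2 KO macrophages served here to place each difference. The question was how receptor-deleted resident cells differed from intact cells of bone marrow origin in the same organ.

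KO microglia came from Cx3cr1CreER/+Tgfbr2fl/fl mice, in which tamoxifen activates a Cre recombinase expressed from 1 of the animal's 2 Cx3cr1 alleles. WT microglia came from Tgfbr2fl/fl mice without Cre. WT macrophages were cells of Tgfbr2fl/fl bone marrow that had settled in the CNS of irradiated Cx3cr1CreER/+R26DTA/+ mice, whose own microglia were killed by diphtheria toxin after tamoxifen. KO macrophages were made in the same hosts with Cx3cr1CreER/+Tgfbr2fl/fl marrow. All 4 groups received tamoxifen, as 3 daily injections of 5 mg, and were sorted 18 to 22 days later. The macrophage hosts were irradiated and received marrow 6 weeks before tamoxifen, and the microglia donors were not. The sort kept live cells that carried CD11b and lacked Ly6C. It took the F4/80-low fraction in WT and the F4/80-high fraction in KO, which means that gate and genotype also changed together. The gate given in the labels names no marker of donor origin. Cells of 1 to 5 mice were pooled into a library, and WT macrophages carried 2 intact Cx3cr1 alleles where KO microglia carried 1.

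Microglia are the resident macrophages of the CNS, seeded in the embryo and normally not replaced from blood. Transforming growth factor beta (TGF-beta) binds the type II receptor encoded by Tgfbr2, which activates the type I receptor encoded by Tgfbr1, and the pair phosphorylates SMAD2 and SMAD3. The pathway is known to maintain the gene programme by which microglia are told from other macrophages, including Tmem119, P2ry12 and Sall1. Monocyte-derived cells that enter an emptied CNS take up part of this programme but are known to lack Sall1.

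Reads in genes numbered 4368200 to 5916933 in the KO microglia libraries and 3108410 to 5365722 in those of WT macrophages. Mitochondrial genes took 5.84% to 7.68% of reads in KO microglia and 3.18% to 5.35% in WT macrophages. The Y-linked gene Ddx3y stood at 501, 470 and 508 normalized counts in KO microglia and 0.91, 8.9 and 653 in WT macrophages, so the sexes were unevenly spread over the pools, and sex cannot be told apart from the groups in full. All values below are normalized counts, that is, reads divided by a library size factor, and log2 differences are KO microglia minus WT macrophages on the log2(normalized count + 1) scale, with their standard error (SE). A gene was called at a limma adjusted p of 0.05, and 95% intervals of a log2 difference are given without adjustment, so that one that leaves out 0 can belong to a gene that was not called. The macrophage libraries are samples of pooled mice, and the p-values cover the spread between such pools. In sorted bulk samples, fewer cells of a type and less RNA per cell cannot be told apart.

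The genes that the allele and the gate act on were examined before the rest. Tgfbr2 (chromosome 9, 116084293 to 116175360) stood at 2078, 2256 and 2246 in KO microglia and 3427, 2997 and 3486 in WT macrophages (log2 difference -0.59 ± 0.10, adjusted p = 0.000323). The KO libraries were all below the WT libraries, yet most of the signal remained. The table counts reads over the whole gene, so reads from exons outside the deleted segment are included and this level does not check the deletion. Cx3cr1, the fractalkine receptor whose locus carries CreER, was lower, at 625, 420 and 398 in KO microglia and 8268, 7169 and 8319 in WT macrophages (log2 difference -4.07 ± 0.15, adjusted p = 3.05e-11). WT microglia averaged 19192 and KO macrophages 1443. Adgre1, which encodes F4/80, was higher in KO microglia (3862 against 2598; log2 difference 0.57 ± 0.09, adjusted p = 0.000169), the direction of the sort gate. Itgam, which encodes CD11b, was lower (1625 against 2997; log2 difference -0.97 ± 0.22, adjusted p = 0.00313).

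Of 12519 genes tested, 4389 were called (35.1%), 2378 higher in KO microglia (19.0%) and 2011 lower (16.1%). Many of these differences were small: 2417 of the called genes (55.1%) differed by less than 2-fold. A call with at least a 4-fold difference was made for 514 genes higher (4.11%) and 340 lower (2.72%). There was no overlap between the libraries of KO microglia and WT macrophages for 6653 genes (53.1%). At the other end, 7437 genes (59.4%) had a 95% confidence interval that lay wholly within 2-fold in either direction. Library pairs across the groups correlated at a mean Pearson r of 0.869 over these genes, against 0.980 within KO microglia and 0.975 within WT macrophages, as a description of genes that are not independent.

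**Figure D1:**
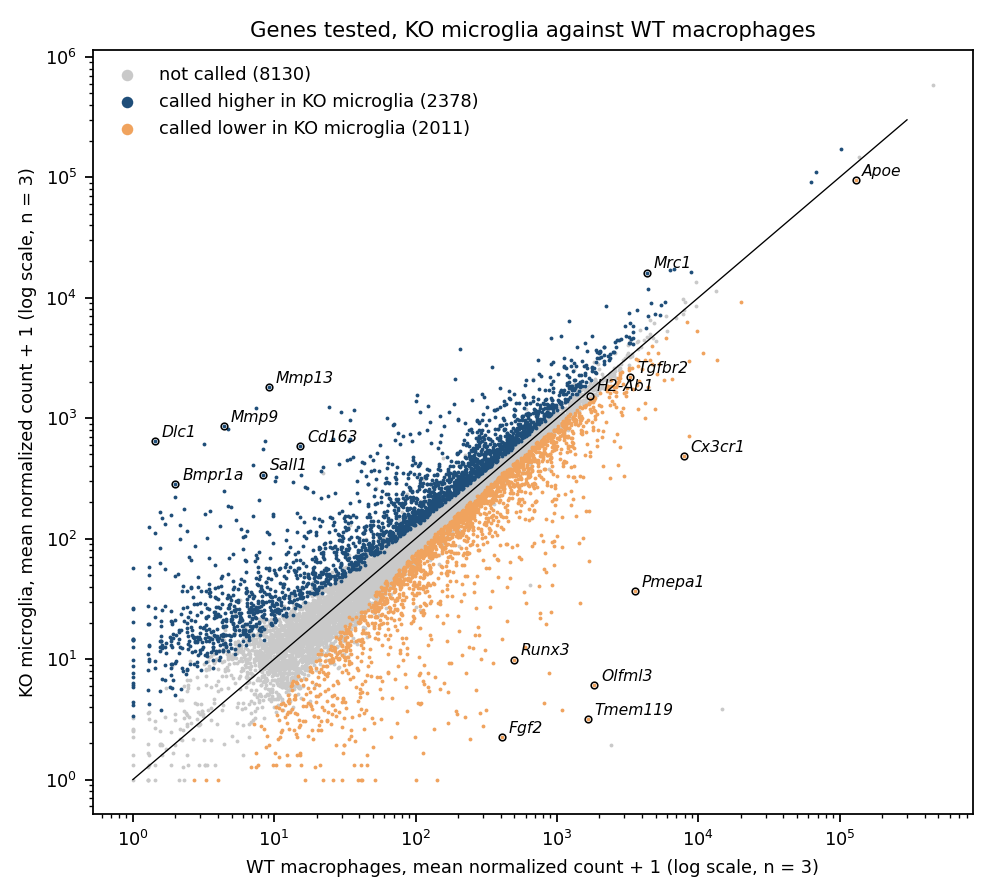
Mean normalized count + 1 of each tested gene in WT macrophages (horizontal, log scale) and KO microglia (vertical, log scale), n = 3 libraries a group, with the line of equal levels and the calls in colour. Mmp13, Mmp9, Dlc1 and Bmpr1a lie far above the line, Tmem119, Olfml3, Pmepa1 and Fgf2 far below it, and H2-Ab1 and Tgfbr2 near it.

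Because origin and genotype change together, each called gene with at least a 4-fold difference was placed by the other groups. A position was computed for the mean of WT microglia and of KO macrophages on the log2 scale, 0 being the WT macrophage mean and 1 the KO microglia mean, and a group at 0.5 or above was taken as nearer to KO microglia. Of the 514 genes higher in KO microglia, 269 (52.3%) were shared with KO macrophages alone, and so followed the genotype. WT microglia alone were nearer for 129 (25.1%), which followed the origin. Both groups were nearer for 67 genes and neither for 49. Of the 340 genes lower in KO microglia, 189 (55.6%) followed the genotype, 67 (19.7%) the origin, 35 had both groups nearer and 49 neither. The gate changed with the genotype and the transplantation with the origin, so these labels name the groups that shared a level and not what set it. With the dividing lines at 0.75 in place of 0.5, the lower genes were most often in the class that neither group shared (165, against 94 that followed the genotype). With a pseudocount of 8 in place of 1, fewer genes were called with at least a 4-fold difference. Of these, 126 of 220 higher and 113 of 208 lower genes followed the genotype. The classes are counts of genes and were not tested.

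**Figure D2:**
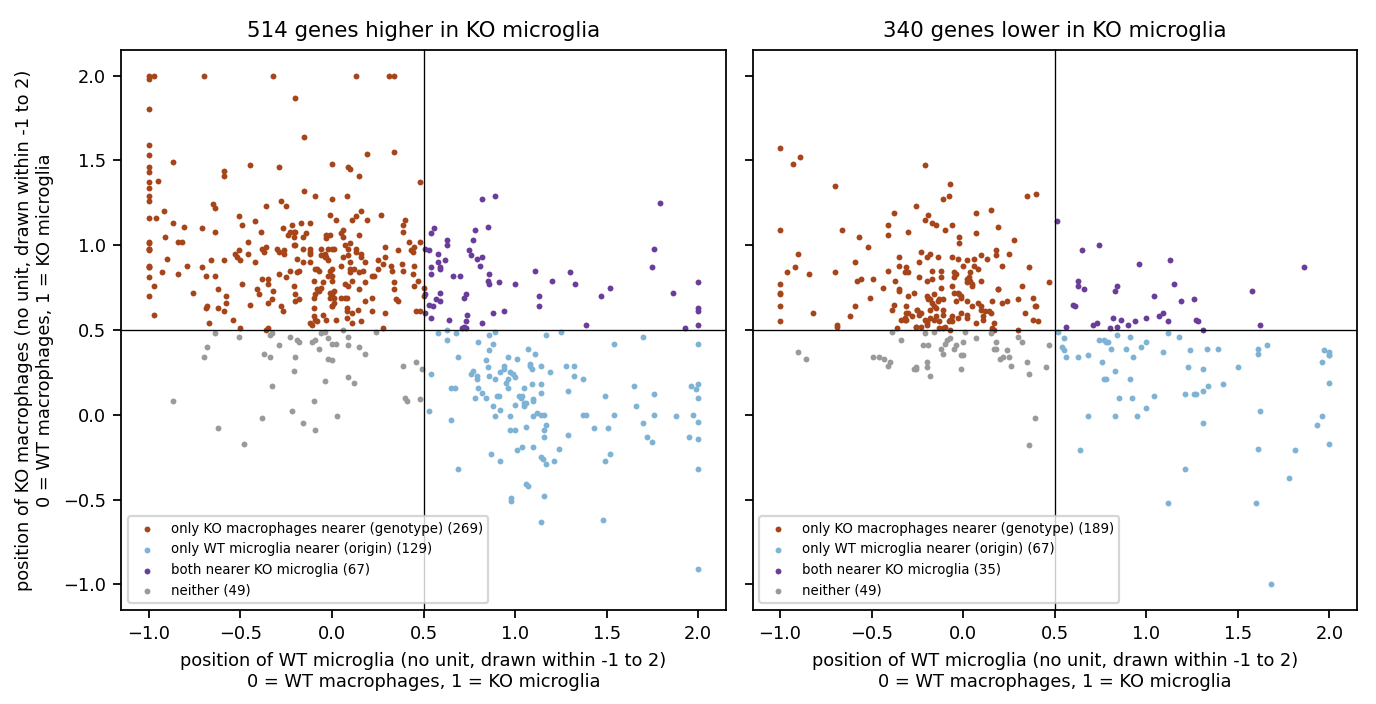
Position of WT microglia (horizontal) and of KO macrophages (vertical) between WT macrophages (0) and KO microglia (1) for each called gene with at least a 4-fold difference, with values beyond -1 and 2 drawn at those limits and the lines at 0.5 that divide the classes. With the lines at 0.5, the most populated quadrant in either direction is the upper left, which holds 269 of 514 higher and 189 of 340 lower genes.

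Genes higher in KO microglia that followed the origin are led by Dlc1, a GTPase-activating protein (chromosome 8, 36567751 to 36953143), at 689, 673 and 559 in KO microglia and 0, 1.27 and 0 in WT macrophages (log2 difference 8.93 ± 0.39, adjusted p = 2.16e-10). A single read in the WT macrophages makes the ratio of 1970, with a counting interval of 353 to 77840, loose. Bmpr1a, a type I receptor for bone morphogenetic proteins (chromosome 14, 34410734 to 34503341), stood at 260, 266 and 319 in KO microglia and 0.91, 1.27 and 0.823 in WT macrophages (log2 difference 7.14 ± 0.34, adjusted p = 5.62e-10). WT microglia averaged 247 and KO macrophages 1.06, so Bmpr1a was near the 1-read level in all 6 marrow-derived libraries and far above it in all 6 microglia libraries. Ptprm, a receptor tyrosine phosphatase of cell contacts, averaged 1222 in KO microglia, 6.37 in WT macrophages, 609 in WT microglia and 84.3 in KO macrophages (log2 difference 7.44 ± 0.32, adjusted p = 2.16e-10). The rule also named Postn, a matricellular protein (147 against 0.607), and Nova1, an RNA-binding splicing regulator (155 against 0.852).

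The reverse set, lower in KO microglia and following the origin, held genes for which KO macrophages lay nearer to WT macrophages on the log2 scale. For each gene named here KO macrophages were nonetheless below WT macrophages, so the level was not the same in both genotypes. Dach1, a transcriptional co-regulator (chromosome 14, 97786853 to 98169765), stood at 2.95, 0 and 2.41 in KO microglia and 358, 286 and 253 in WT macrophages (log2 difference -6.96 ± 0.52, adjusted p = 5.7e-08), was at 0 in WT microglia and averaged 35.8 in KO macrophages. Stard13, a GTPase-activating protein of the same family as Dlc1, averaged 2.77 against 312 (log2 difference -6.41 ± 0.52, adjusted p = 1.54e-07). KO macrophages averaged 191 for it. Kynu, the kynureninase of tryptophan breakdown, averaged 0.655 against 111, Ctse, the aspartic protease cathepsin E, 1.97 against 169, and Tnfsf8, the ligand of CD30, 2.71 against 191. KO macrophages averaged 20.6, 26.6 and 53.3 for these genes. Dlc1 and Stard13 thus showed opposite patterns between the groups.

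**Figure D3:**
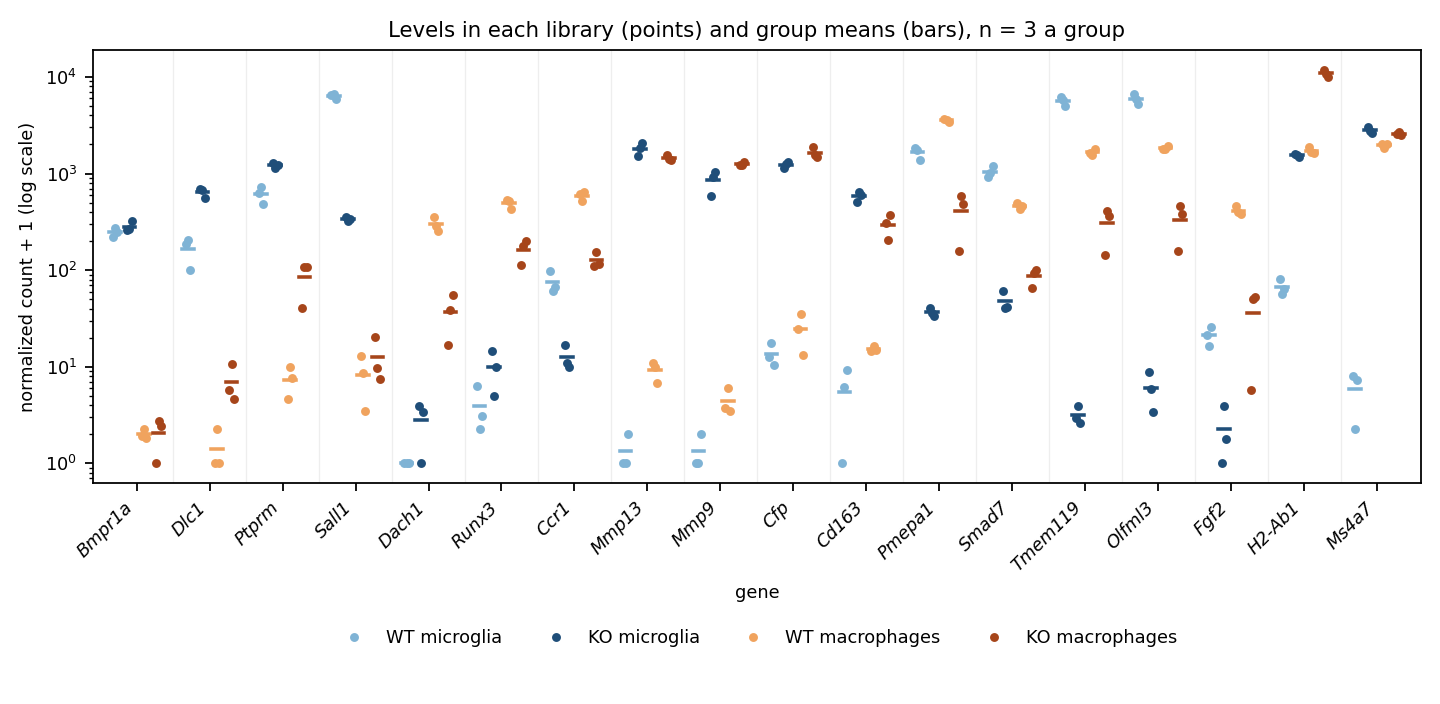
Normalized counts, with 1 added, of 18 genes on a log scale for the 12 libraries, by group in the order WT microglia, KO microglia, WT macrophages, KO macrophages, with bars at group means. Bmpr1a, Dlc1 and Ptprm are high in the 6 microglia libraries, Dach1, Runx3 and Ccr1 are lowest in the microglia, and Mmp13, Mmp9, Cfp and Cd163 are high in the 6 KO libraries.

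Genes higher in KO microglia that followed the genotype are led by the complement regulator Cd55 and by metalloproteinases. Mmp13, a collagenase (chromosome 9, 7272514 to 7283331), stood at 1525, 1821 and 2059 in KO microglia and 10, 8.9 and 5.76 in WT macrophages (log2 difference 7.63 ± 0.26, adjusted p = 1.79e-11), with 0.345 in WT microglia and 1449 in KO macrophages. Mmp9, a gelatinase (chromosome 2, 164940780 to 164955850), stood at 586, 930 and 1047 in KO microglia and 2.73, 5.08 and 2.47 in WT macrophages (log2 difference 7.60 ± 0.31, adjusted p = 1.06e-10), with 0.345 and 1256 in the other groups. All KO libraries of either origin were far above all WT libraries for these collagen-degrading enzymes. The genes were picked by size of difference, lack of overlap and class, so this separation is in part a result of the choice. Cd55, which speeds the decay of complement convertases at the cell surface, averaged 606 against 2.18 (log2 difference 7.85 ± 0.60, adjusted p = 7.92e-08). Gprc5c, an orphan receptor, averaged 222 against 0.972, and Tox2, a nuclear protein of the TOX family, 125 against 0.303. In the lower direction the genotype set was led by Pmepa1, an inhibitor of TGF-beta signalling, with Tjp1, a tight-junction scaffold (28.2 against 1466), Spsb1 (8.31 against 352), Whrn (20.9 against 753) and the gelatinase Mmp2 (4.38 against 169).

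A smaller group of genes set WT macrophages apart from all the others. Fgf2, basic fibroblast growth factor (chromosome 3, 37348346 to 37410108), stood at 0, 2.95 and 0.804 in KO microglia and 455, 399 and 377 in WT macrophages (log2 difference -7.74 ± 0.67, adjusted p = 3.08e-07). WT microglia averaged 20.2 and KO macrophages 35.1, so both shared more of the low level of KO microglia. Cacna1a, the pore subunit of a P/Q-type calcium channel, was higher at 810 against 3.71 (log2 difference 7.85 ± 0.61, adjusted p = 9.88e-08), with 196 in WT microglia and 61.1 in KO macrophages. Lrrk2, a kinase, averaged 7.95 in KO microglia and 114 in WT macrophages, and Kcnj10, an inward-rectifier potassium channel, 47.3 and 379. Genes that neither group shared included Cpne8, a calcium-dependent membrane-binding protein (164 in KO microglia, 0.549 in WT macrophages, 0.294 in WT microglia and 7.16 in KO macrophages). The chemokine Ccl24 averaged 184, 3.68, 4.88 and 32.4 in the same order. In the lower direction the class in which neither group was nearer held Lhfpl2 (2.77 against 1077, with 160 in KO macrophages; log2 difference -8.16 ± 0.25, adjusted p = 7.36e-12) and F11r, which encodes junctional adhesion molecule A (3.36 against 810, with 107 in KO macrophages; log2 difference -7.59 ± 0.43, adjusted p = 2.99e-09). Tmem119, Olfml3 and Mmp14, described below, belong to it too. In each of these genes KO macrophages lay between the groups, closer to WT macrophages on the log2 scale.

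The homeostatic microglia genes were lower in the microglia than in the macrophages for the most part. Of 40 listed genes, all tested, 25 were lower in KO microglia, 5 higher and 10 not called, with a median log2 difference of -1.18, against 0.00 over all genes tested. Tmem119, a membrane protein used as a microglia marker (chromosome 5, 113793729 to 113800516), stood at 1.96, 2.95 and 1.61 in KO microglia and 1629, 1540 and 1797 in WT macrophages (log2 difference -9.05 ± 0.28, adjusted p = 7.79e-12). Olfml3, a secreted glycoprotein, stood at 7.86, 4.92 and 2.41 in KO microglia and 1808, 1784 and 1928 in WT macrophages (log2 difference -8.35 ± 0.34, adjusted p = 1.06e-10). No KO microglia library was above 7.86 normalized counts for either gene, and no WT macrophage library fell below 1540. KO macrophages averaged 306 and 332, between the groups. Serpine2, a protease inhibitor, averaged 5.27 against 113 (log2 difference -4.20 ± 0.29, adjusted p = 2.72e-08). P2ry12, the ADP receptor of microglial processes, averaged 298 against 1353 (log2 difference -2.18 ± 0.12, adjusted p = 1.47e-09).

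Sall1, a zinc-finger transcription factor of microglia (chromosome 8, 89027235 to 89044162), was the exception with the largest difference. It stood at 354, 323 and 337 in KO microglia and 11.8, 7.63 and 2.47 in WT macrophages (log2 difference 5.54 ± 0.39, adjusted p = 2.76e-08). WT microglia averaged 6360 and KO macrophages 11.5, so KO microglia kept 5.31% of the WT microglia level and WT macrophages 0.115%. Gas6, a ligand of the TAM receptors that recognise dying cells, was also higher (2653 against 347; log2 difference 2.93 ± 0.14, adjusted p = 3.85e-10), with 1354 in KO macrophages. Csf1r, the receptor on which these cells depend for survival, was not called (11462 against 13398, 95% interval -0.43 to -0.02), nor was Mertk, a TAM receptor (2745 against 3247, -0.46 to -0.02).

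The same genes were set against WT microglia, since the gate given in the labels names no marker of donor origin. In WT macrophages, genes near 0 relative to WT microglia included Sall1 and Upk1b, both at 0.115%, Jam2 at 0.161% and Sall3 at 0.188%. Ecscr stood at 0.378% and Bmpr1a at 0.405%. By contrast Tmem119 stood at 29.1% of the WT microglia level, Olfml3 at 31%, Siglech at 22.1% and Cx3cr1 at 41.3%. Over the 40 genes WT macrophages were under 1% of WT microglia for 9 and at 10% or more for 27, with a median of 25.4%. KO microglia were under 1% for 12 and at 10% or more for 17, with a median of 7.44%. Of the 9 genes under 1% in WT macrophages, 8 were also under 1% in KO microglia, Upk1b and Sall3 among them (0.225% and 0.983%), and the ninth was Sall1. A further 4 genes, Tmem119, Olfml3, Serpine2 and Crybb1, were under 1% in KO microglia alone.

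**Figure D4:**
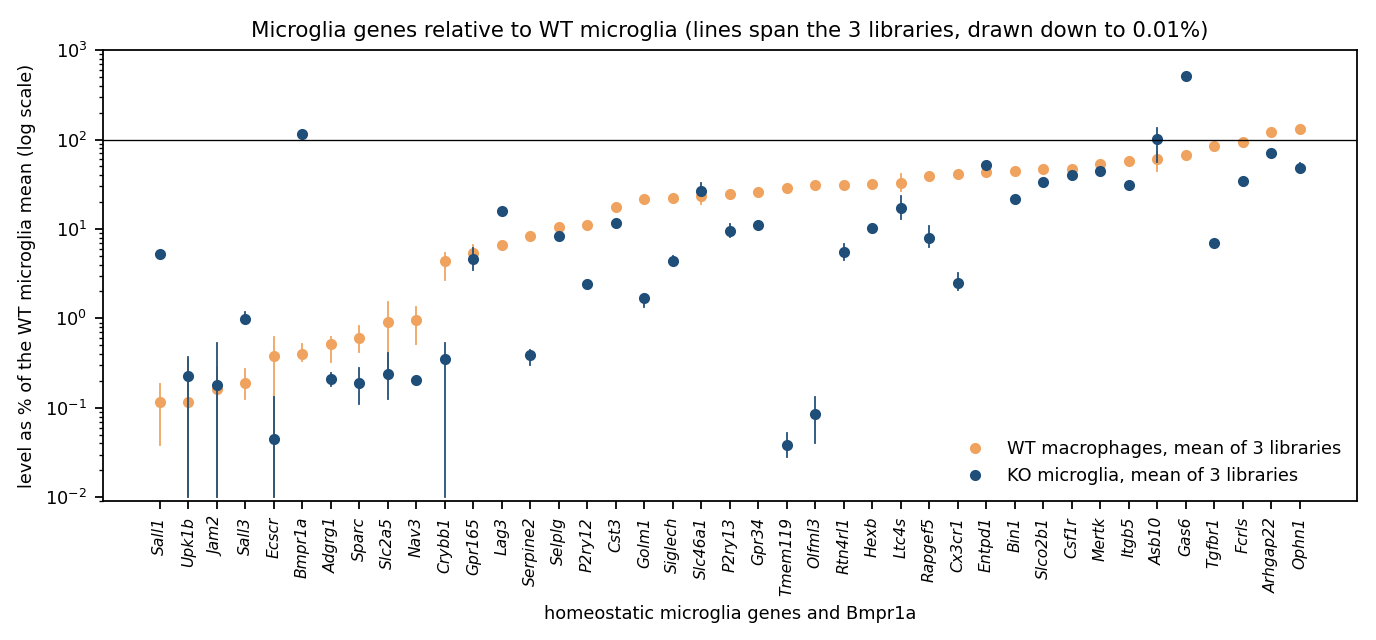
Mean level of 40 homeostatic microglia genes and Bmpr1a in WT macrophages and KO microglia, as a percent of the WT microglia mean (log scale), with lines spanning the 3 libraries and values under 0.01% drawn at that limit. Sall1 is at 0.115% in WT macrophages against 5.31% in KO microglia, and Bmpr1a at 0.405% against 114%, whereas Tmem119 falls from 29.1% in WT macrophages to 0.0383% in KO microglia and Olfml3 from 31% to 0.0852%.

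TGF-beta receptors, SMADs, regulators and target genes were lower in KO microglia in most cases. Of 27 tested genes of 35 listed, 17 were lower, 7 higher and 3 not called (median -1.08). Tgfbr1, the type I receptor (chromosome 4, 47353222 to 47414931), stood at 718, 690 and 711 in KO microglia and 8778, 8011 and 9026 in WT macrophages (log2 difference -3.60 ± 0.13, adjusted p = 3.12e-11). Smad7, the inhibitory SMAD that the pathway induces, averaged 46.5 against 462 (log2 difference -3.31 ± 0.18, adjusted p = 1.87e-09). Pmepa1 (chromosome 2, 173224458 to 173276533) stood at 39.3, 35.4 and 32.2 in KO microglia and 3627, 3597 and 3448 in WT macrophages (log2 difference -6.61 ± 0.32, adjusted p = 7.34e-10). No library of either group overlapped for these genes, and WT microglia (1655 for Pmepa1) were on the side of WT macrophages. Of the SMADs that carry the TGF-beta signal, Smad3 was higher (420 against 335; log2 difference 0.32 ± 0.11, adjusted p = 0.0374), a call lost without any single library of either group, at adjusted p of 0.0535 to 0.111, with no filter on low values, at 0.062, and with Ddx3y as a covariate, at 0.0598. Smad2 averaged 211 against 224 and Smad4 282 against 246, neither called (95% intervals -0.30 to 0.13 and -0.02 to 0.42). Higher genes included the cell-cycle inhibitor Cdkn1a (239 against 37.8; log2 difference 2.66 ± 0.37, adjusted p = 4.97e-05) and the co-receptor Eng (187 against 70.3; log2 difference 1.42 ± 0.14, adjusted p = 1.54e-06). The ligand genes Tgfb1 (log2 difference 1.06 ± 0.09, adjusted p = 2.36e-07) and Tgfb3 (log2 difference 1.93 ± 0.39, adjusted p = 0.00115) were higher too. So were Nrros (log2 difference 1.08 ± 0.10, adjusted p = 6.4e-07) and Klf10 (log2 difference 1.21 ± 0.20, adjusted p = 0.000271).

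Smad6, a further inhibitory SMAD, was chosen for a look at its promoter after its values were seen. It had no reads in the KO microglia libraries and 32.8, 54.6 and 33.7 normalized counts in WT macrophages. KO microglia were at least 42.3-fold lower when 3 reads over the group are taken as the floor. Of 16 tested pathway genes with a RefSeq promoter (GRCm38.p6, 250 bases before to 50 after the start), Smad6 alone held the palindrome GTCTAGAC, a known SMAD-binding sequence, which 26 of 9029 tested genes with a promoter held (0.288%). The remaining tested genes of the pathway had no promoter in this set and were not searched. A match is a description of letters and not a site. The promoter lies at chr9:64022010-64022309 on the reverse strand, with the palindrome in capitals:
Smad6 promoter: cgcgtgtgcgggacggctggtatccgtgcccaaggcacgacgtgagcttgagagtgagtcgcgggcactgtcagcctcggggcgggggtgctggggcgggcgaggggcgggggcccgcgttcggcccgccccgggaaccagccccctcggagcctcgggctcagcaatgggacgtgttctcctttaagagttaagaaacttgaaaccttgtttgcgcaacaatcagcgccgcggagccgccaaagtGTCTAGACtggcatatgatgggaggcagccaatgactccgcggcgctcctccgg

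The bone morphogenetic protein branch, which signals through related receptors, had 10 tested genes of 23 listed, with 4 higher, 3 lower and 3 not called (median 0.00). Besides Bmpr1a, the ligand Bmp2 was higher at 343, 330 and 335 in KO microglia and 14.6, 14 and 14.8 in WT macrophages (log2 difference 4.45 ± 0.35, adjusted p = 1.16e-07). Id2, a target that restrains basic helix-loop-helix factors, averaged 316 against 87.3 and the activin receptor Acvr1b 191 against 124. The related Id1, Id3 and Id4 were too low to be tested (0.596 against 2, 2.59 against 1 and 3.57 against 0.727). The type II receptor Bmpr2 was lower (784 against 1510; log2 difference -0.94 ± 0.12, adjusted p = 1.5e-05), as was Acvr1 (106 against 194). For Bmp2, WT microglia averaged 1.66 and KO macrophages 136.

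Among 35 transcription factors of macrophage identity, 11 were higher, 12 lower and 12 not called (median 0.20). Their shares, 31.4% higher and 34.3% lower, compare with 19.0% and 16.1% over all genes tested. Among the Runt factors Runx3 and Runx2 were lower and Runx1 higher. Runx3 stood at 13.7, 3.93 and 8.84 in KO microglia and 527, 520 and 432 in WT macrophages (log2 difference -5.78 ± 0.40, adjusted p = 2.69e-08) and Runx2 averaged 4.88 against 122 (log2 difference -4.39 ± 0.30, adjusted p = 2.08e-08), while Runx1 averaged 2708 against 1566 (log2 difference 0.79 ± 0.11, adjusted p = 3.63e-05). KO macrophages kept 162 counts of Runx3, whereas WT microglia had 2.88. Bhlhe41 averaged 199 against 699 and Bach2, a repressor, 113 against 362. Pparg, a lipid-sensing nuclear receptor, was higher (154 against 8.74; log2 difference 3.98 ± 0.24, adjusted p = 6.24e-09), and KO macrophages averaged 163. The lineage factor Spi1, which encodes PU.1, was not called (740 against 643, 95% interval 0.01 to 0.40).

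Genes known from macrophages of the brain's borders, the meninges and perivascular spaces, were higher in the KO microglia. Of 18 tested genes of 20 listed, 14 were higher, 2 lower and 2 not called (median 2.03). Cd163, the haptoglobin-haemoglobin scavenger receptor (chromosome 6, 124304656 to 124330527), stood at 507, 645 and 604 in KO microglia and 13.7, 15.3 and 14 in WT macrophages (log2 difference 5.25 ± 0.56, adjusted p = 2.8e-06). Clec10a, a galactose-binding lectin, averaged 667 against 25.2 (log2 difference 4.74 ± 0.27, adjusted p = 2.99e-09), the chemokine Pf4 615 against 76.7 (log2 difference 2.97 ± 0.29, adjusted p = 9.33e-07), and F13a1, coagulation factor XIII, 616 against 128. Mrc1, the mannose receptor, averaged 16082 and 4356. Siglec1, a sialic acid receptor, was lower (1680 against 2527; log2 difference -0.58 ± 0.14, adjusted p = 0.0041), as was the fatty acid receptor Cd36 (108 against 205; log2 difference -0.93 ± 0.34, adjusted p = 0.0453). The call for Cd36 was lost without any of 5 single libraries, at adjusted p of 0.071 to 0.145, and with Ddx3y as a covariate, at 0.137, and kept without KO microglia replicate 3. In the cases where it was lost, the lower members of the list numbered 1 in place of 2. KO macrophages averaged 292 for Cd163 and 1277 for Clec10a, and WT microglia 4.48 and 0.294.

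A list of genes known from marrow-derived macrophages engrafted in the CNS was divided between the groups. Of 28 tested genes of 30 listed, 12 were lower in KO microglia, 8 higher and 8 not called (median -0.35). Ccr1, a chemokine receptor, stood at 15.7, 9.83 and 8.84 in KO microglia and 609, 517 and 645 in WT macrophages (log2 difference -5.60 ± 0.23, adjusted p = 1.09e-10). Clec12a, an inhibitory lectin, averaged 206 against 929 (log2 difference -2.17 ± 0.55, adjusted p = 0.00614) and Tgfbi 403 against 1321 (log2 difference -1.70 ± 0.09, adjusted p = 1.09e-09). Fcgr4, an activating Fc receptor, was higher in KO microglia (594 against 55; log2 difference 3.42 ± 0.14, adjusted p = 1.11e-10), as was the ectoenzyme Cd38 (331 against 43.5). Ms4a7, often used as a marker of engrafted cells, was not called: it stood at 3038, 2743 and 2651 in KO microglia and 2005, 1853 and 2044 in WT macrophages (95% interval -0.16 to 1.18). The KO microglia libraries were all above the WT macrophage libraries, while WT microglia averaged 4.85. Ms4a7 was called with the 6 libraries alone (log2 difference 0.51, limma adjusted p = 5.99e-05). It was also called with a pseudocount of 8 (limma adjusted p = 0.00705) and with limma-voom on the recovered reads (adjusted p = 8.27e-05). Apoe, the apolipoprotein, averaged 94960 against 129838 (log2 difference -0.45 ± 0.15, adjusted p = 0.0279), a call lost without KO microglia replicate 1 or 2 or WT macrophages replicate 1 or 2, at adjusted p of 0.0671 to 0.083, and with Ddx3y as a covariate, at 0.0512. Of 9 tested monocyte genes of 15 listed, 3 were higher, 2 lower and 4 not called (median 0.32, range -2.51 to 3.82). Their shares, 33.3% higher and 22.2% lower, compare with 19.0% and 16.1% over all genes tested. The higher ones numbered 1 without KO microglia replicate 1 or with the filter on the 6 libraries. The lower ones numbered 1 without KO microglia replicate 1, without WT macrophages replicate 1 or 2, or with Ddx3y as a covariate. No higher member reached the mean of 100 asked of named genes. Of the lower members, the integrin Itgal averaged 84.6 against 478 (log2 difference -2.51 ± 0.48, adjusted p = 0.000785).

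Interferon-stimulated genes were mostly higher in KO microglia. Of 41 tested genes of 42 listed, 32 were higher, 1 lower and 8 not called (median 0.99), where 19.0% of all tested genes were higher. Ifitm3, which blocks viral fusion, stood at 629, 587 and 747 in KO microglia and 67.4, 54.6 and 90.5 in WT macrophages (log2 difference 3.21 ± 0.22, adjusted p = 2.16e-08). Rsad2, which encodes viperin, an enzyme that makes an antiviral nucleotide, stood at 358, 484 and 422 in KO microglia and 71.9, 36.9 and 79.8 in WT macrophages (log2 difference 2.79 ± 0.38, adjusted p = 3.96e-05). Ifit2, an RNA-binding antiviral protein, averaged 726 against 150 and Ifit3 295 against 61.8. All KO microglia libraries were above all WT macrophage libraries for Ifitm3 and Rsad2, with WT macrophages spread from 36.9 to 79.8 for Rsad2. Bst2, which encodes tetherin, was the single lower member (271, 275 and 285 in KO microglia and 401, 417 and 444 in WT macrophages; log2 difference -0.60 ± 0.15, adjusted p = 0.00507). KO macrophages averaged 192 for Rsad2 and 506 for Ifitm3, and WT microglia 10 and 13.5. The summed level of the list was 20756 to 22960 in KO microglia and 10437 to 12997 in WT macrophages. With Ddx3y as a covariate, 25 were higher and 2 lower, and without WT macrophages replicate 2, 24 were higher and 1 lower.

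The interferon-inducible GTPases, which attack the vacuoles of intracellular microbes, were higher for 13 of 15 tested genes of 16 listed and lower for none (median 1.22). The 2 remaining genes, Ifi47 and Gbp3, were not called. Iigp1 stood at 322, 362 and 400 in KO microglia and 46.4, 16.5 and 57.6 in WT macrophages (log2 difference 3.30 ± 0.40, adjusted p = 1.2e-05). Gbp2 averaged 121 against 32.4 and Gbp4 116 against 31.4. Members of this family are near-identical copies in places, so reads may be split between them. With Ddx3y as a covariate, or without WT macrophages replicate 2, 9 of the 15 were higher. Of 20 tested receptors, kinases, STAT and IRF factors of 21 listed, 6 were higher, 3 lower and 11 not called (median 0.11). That is 30% higher and 15% lower, beside 19.0% and 16.1% over all genes tested. Stat2, a subunit of the factor that type I interferon activates, averaged 752 against 446 (log2 difference 0.75 ± 0.13, adjusted p = 0.000268), and Irf4 111 against 42.4. The receptor chain Ifngr1 was higher (2276 against 1584), and Ifnar1 (1252 against 2046; log2 difference -0.71 ± 0.09, adjusted p = 3.02e-05) was lower.

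Promoters of these genes are shown because most of the list was higher, and that of Bst2 because Bst2 was lower. The core of the interferon-stimulated response element, GAAA followed by any 2 bases and a second GAAA, was searched on both strands of the 300-base RefSeq promoters. It stood in 21 of 31 tested interferon-stimulated genes with a promoter (67.7%), in 8 of 9 GTPases (88.9%) and in 374 of 9029 tested genes (4.14%). Among the interferon-stimulated genes it was held by 16 of 23 that were higher, by the 1 that was lower and by 4 of 7 that were not called. The motif was thus present in the promoters of Bst2 and of uncalled genes as well as of higher genes, and a match is no evidence of binding. The following runs go from 5′ to 3′ on the gene's strand, with matches on either strand in capitals, from GRCm38.p6. Rsad2 lies at chr12:26456403-26456702 on the reverse strand, Ifitm3 at chr7:141010695-141010994 on the reverse strand, Gbp2 at chr3:142620413-142620712 on the forward strand and Bst2 at chr8:71537423-71537722 on the reverse strand:
Rsad2 promoter: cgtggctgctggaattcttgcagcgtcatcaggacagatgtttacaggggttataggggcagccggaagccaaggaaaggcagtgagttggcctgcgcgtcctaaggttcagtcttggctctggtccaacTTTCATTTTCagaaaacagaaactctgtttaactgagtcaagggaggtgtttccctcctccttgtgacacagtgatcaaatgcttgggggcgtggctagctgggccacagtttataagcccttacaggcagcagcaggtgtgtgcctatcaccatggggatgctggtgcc
Ifitm3 promoter: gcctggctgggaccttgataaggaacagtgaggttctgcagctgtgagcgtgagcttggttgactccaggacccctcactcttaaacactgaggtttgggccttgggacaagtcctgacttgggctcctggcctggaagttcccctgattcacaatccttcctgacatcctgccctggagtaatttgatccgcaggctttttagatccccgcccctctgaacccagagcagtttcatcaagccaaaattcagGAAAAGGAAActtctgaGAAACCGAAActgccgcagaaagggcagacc
Gbp2 promoter: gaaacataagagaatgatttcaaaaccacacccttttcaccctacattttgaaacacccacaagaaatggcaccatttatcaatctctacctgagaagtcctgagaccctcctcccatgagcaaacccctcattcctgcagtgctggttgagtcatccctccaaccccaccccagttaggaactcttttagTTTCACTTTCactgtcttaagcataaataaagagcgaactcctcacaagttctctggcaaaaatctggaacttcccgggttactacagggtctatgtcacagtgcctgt
Bst2 promoter: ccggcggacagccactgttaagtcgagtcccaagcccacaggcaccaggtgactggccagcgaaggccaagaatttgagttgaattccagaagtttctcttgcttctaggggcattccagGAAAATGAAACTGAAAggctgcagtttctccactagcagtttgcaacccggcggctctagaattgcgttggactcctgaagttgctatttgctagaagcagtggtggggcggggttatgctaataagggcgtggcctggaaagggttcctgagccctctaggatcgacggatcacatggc
In Bst2 the 2 matches overlap, beginning at positions -130 and -124 from the gene's start. The match in Rsad2 begins at -120, and those in Ifitm3 at 3 and 20 after the start.

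Antigen presentation divided by class. Of 20 tested MHC class I genes, which present peptides from inside the cell, 11 were higher, none lower and 9 not called (median 0.45). H2-K1 stood at 4765, 4466 and 5143 in KO microglia and 1741, 1599 and 1957 in WT macrophages (log2 difference 1.44 ± 0.14, adjusted p = 1.48e-06) and H2-D1 averaged 3909 against 1380 (log2 difference 1.50 ± 0.17, adjusted p = 4.53e-06). H2-Q4 averaged 740 against 232 and H2-Q7 187 against 45, though the H2-Q genes are near-identical copies whose reads may be split. Of 15 class II genes, which present material taken up from outside, 8 were lower, 1 higher and 6 not called (median -0.32). The lower members included Ctss, the cathepsin that trims the invariant chain (3499 against 10833; log2 difference -1.63 ± 0.10, adjusted p = 1.24e-08), and H2-DMa, a peptide-loading chaperone (150 against 417; log2 difference -1.48 ± 0.11, adjusted p = 4.55e-08). The regulator Rfx5 averaged 146 against 221, and the thiol reductase Ifi30, the higher member, 425 against 295. Without WT macrophages replicate 1, 5 class II genes were lower.

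The class II molecule itself was not called. H2-Ab1 stood at 1596, 1544 and 1477 in KO microglia and 1887, 1662 and 1616 in WT macrophages (95% interval -0.40 to 0.09), every KO microglia library lying a little below every WT macrophage library. H2-Aa averaged 1193 against 1318 (-0.34 to 0.06), the invariant chain Cd74 5004 against 4527 (-0.05 to 0.34) and the transactivator Ciita 178 against 147 (-0.19 to 0.72). The levels lay between those of the other groups: H2-Ab1 averaged 66.2 in WT microglia and 10884 in KO macrophages. KO microglia and WT macrophages thus had H2-Ab1 levels whose interval of difference lies within 2-fold, in a study where the groups' means spanned 66.2 to 10884.

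Costimulatory and checkpoint genes had 8 higher, 4 lower and 4 not called of 16 tested. Tnfsf18, the ligand of GITR, averaged 131 against 0.698, where 2 reads in WT macrophages gave a ratio of 207 with a counting interval of 57 to 1715. Pirb, an inhibitory receptor for class I molecules, averaged 1039 against 147 (log2 difference 2.84 ± 0.17, adjusted p = 6.01e-09), Cd200r1, which restrains myeloid cells, 235 against 61, and Cd274, which encodes PD-L1, 166 against 58.6. Havcr2, which encodes the checkpoint receptor TIM-3, was lower at 92.3, 91.4 and 76.4 in KO microglia and 988, 982 and 895 in WT macrophages (log2 difference -3.45 ± 0.10, adjusted p = 3.94e-12), as was Icosl (423 against 1107).

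Complement genes were higher for 12 of 16 tested of 20 listed, lower for 3 and not called for 1 (median 0.77). Cfp, which encodes properdin, a stabiliser of the alternative-pathway convertase, stood at 1144, 1248 and 1313 in KO microglia and 23.7, 34.3 and 12.3 in WT macrophages (log2 difference 5.77 ± 0.27, adjusted p = 4.32e-10). C4b, a component of the classical pathway, averaged 962 against 33.2 (log2 difference 4.87 ± 0.50, adjusted p = 2e-06), and C5ar1, the receptor for C5a, 1397 against 100 (log2 difference 3.82 ± 0.20, adjusted p = 1.11e-09). KO macrophages averaged 1625 for Cfp and 979 for C4b. The lower members included the complement-receptor integrins Itgax (41.2 against 211; log2 difference -2.35 ± 0.30, adjusted p = 1.73e-05) and Itgam. Of 10 tested genes of Fc receptors and their signalling, 7 were higher, 2 lower and 1 not called (median 0.77). Fcgrt, the neonatal Fc receptor that recycles IgG, averaged 874 against 68.1 (log2 difference 3.66 ± 0.16, adjusted p = 1.82e-10), the inhibitory Fcgr2b 4641 against 908 and the activating Fcgr3 2710 against 1119. Fcrls (2090 against 5701) and the phosphatase Inpp5d (1824 against 4400), known as SHIP-1, were lower.

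C-type lectins, receptors for sugars on microbes and cells, had 10 higher, 5 lower and 4 not called of 19 tested (median 1.21). Clec4a1 stood at 1104, 1107 and 1134 in KO microglia and 30, 30.5 and 25.5 in WT macrophages (log2 difference 5.24 ± 0.15, adjusted p = 3.94e-12), Clec4a3 averaged 932 against 125 and Clec4b1 152 against 6.13. Clec5a, which signals with DAP12, was lower (65.2 against 383; log2 difference -2.54 ± 0.11, adjusted p = 1.52e-10). Scavenger receptors had 7 higher, 2 lower and 1 not called of 10 tested (median 1.42), among them Msr1 (1320 against 433), Scarb1 (250 against 93.1) and the lysosomal glycoprotein Cd68 (4217 against 1569; log2 difference 1.43 ± 0.15, adjusted p = 3.43e-06). The 2 lower calls fell to 0 without KO microglia replicate 1 or 2 or WT macrophages replicate 1 or 3, and to 1 without WT macrophages replicate 2 or with Ddx3y as a covariate. Phagocytosis genes were divided, with 8 higher, 7 lower and 5 not called of 20 tested. Cd300ld averaged 1179 against 35.6 (log2 difference 5.06 ± 0.29, adjusted p = 2.99e-09), Cd300a 962 against 198, and Pros1, the partner of Gas6 as a TAM ligand, 814 against 365. Trem2, a lipid receptor, was lower at 459, 375 and 366 in KO microglia and 2115, 2227 and 2053 in WT macrophages (log2 difference -2.42 ± 0.11, adjusted p = 4.15e-10).

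Chemokine ligands and chemokine receptors differed in direction. Of 18 tested ligands of 25 listed, 11 were higher, 1 lower (2 without KO microglia replicate 2 or KO macrophages replicate 1) and 6 not called (median 1.40). Of 7 tested receptors of 20 listed, none was higher, 4 were lower and 3 not called (median -0.61). Ccl7, a monocyte attractant, stood at 297, 293 and 307 in KO microglia and 12.7, 3.81 and 10.7 in WT macrophages (log2 difference 5.03 ± 0.61, adjusted p = 1.15e-05), and Ccl8 averaged 101 against 2.34 (log2 difference 5.24 ± 0.50, adjusted p = 8.66e-07). KO macrophages averaged 300 for Ccl7 and 148 for Ccl8. Cxcr4, which binds CXCL12, was lower at 94.3, 85.5 and 95.7 in KO microglia and 689, 726 and 650 in WT macrophages (log2 difference -2.89 ± 0.17, adjusted p = 4.82e-09).

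Of 20 tested inflammatory cytokines, 5 were higher, 4 lower and 11 not called (median -0.02). These shares, 25% and 20%, were near the 19.0% and 16.1% over all genes tested. Il15 averaged 156 against 107 and Il16 870 against 686, both higher. Il1a was lower (64.9 against 298; log2 difference -2.18 ± 0.14, adjusted p = 1.46e-08), as was Tnfsf13b, the B cell factor BAFF (29.3 against 147; log2 difference -2.28 ± 0.35, adjusted p = 0.000124). Tnf (71.6 against 104, 95% interval -1.15 to 0.11) was not called. Toll-like receptors and their partners had 7 higher, 7 lower and 6 not called of 20 tested. Each share was 35%, beside 19.0% higher and 16.1% lower over all genes tested. Tlr5, the flagellin receptor, averaged 281 against 44.7 (log2 difference 2.62 ± 0.16, adjusted p = 7.9e-09) and the RNA sensor Tlr7 2852 against 1325 (log2 difference 1.25 ± 0.33, adjusted p = 0.00766), with Unc93b1, which carries it to endosomes, at 5555 against 4261. Tlr8 (295 against 850; log2 difference -1.40 ± 0.43, adjusted p = 0.0207) and Tlr12 (58.1 against 163) were lower. For Tlr8 the adjusted p was 0.0771 without KO microglia replicate 2 and 0.114 without WT macrophages replicate 3. The higher members numbered 4 without KO microglia replicate 2, without WT macrophages replicate 1 or 2, with no filter on low values, or with Ddx3y as a covariate.

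Proteases of the extracellular matrix differed in kind. Of 11 tested metalloproteinases and their inhibitors of 21 listed, 7 were higher, 2 lower and 2 not called (median 1.99). Besides Mmp13 and Mmp9, the elastase Mmp12 was higher (112 against 18.9; log2 difference 2.65 ± 0.36, adjusted p = 3.96e-05). The median was 0.62 with no filter on low values and 0.65 with a pseudocount of 8. The membrane-bound Mmp14, which activates the product of Mmp2, was lower at 10.8, 5.9 and 3.22 in KO microglia and 915, 751 and 949 in WT macrophages (log2 difference -6.95 ± 0.48, adjusted p = 2.89e-08), and Mmp2 was lower (log2 difference -5.06 ± 0.54, adjusted p = 2.73e-06). Of 12 ADAM-family genes tested, 5 were higher, 5 lower and 2 not called. Adam22 averaged 995 against 62 (log2 difference 3.98 ± 0.10, adjusted p = 3.94e-12), Adam19 1246 against 317, and Adam33 139 against 452. Integrins, which bind matrix and other cells, were lower for 9 of 15 tested, higher for 3 and not called for 3 (median -0.93). Itga6, a laminin receptor chain, stood at 359, 323 and 300 in KO microglia and 3016, 2876 and 2988 in WT macrophages (log2 difference -3.18 ± 0.13, adjusted p = 8.9e-11), and Itgav, which with Itgb8 activates latent TGF-beta, averaged 324 against 1326 (log2 difference -2.03 ± 0.15, adjusted p = 4.58e-08). Itga9 (2791 against 905) and Itgb1 (1769 against 936) were higher.

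Lipid transport genes were higher for 11 of 23 tested, lower for 5 and not called for 7 (median 0.36). Lpl, lipoprotein lipase, stood at 727, 1034 and 940 in KO microglia and 66.5, 82.6 and 57.6 in WT macrophages (log2 difference 3.69 ± 0.20, adjusted p = 1.53e-09), Pltp, the phospholipid transfer protein, averaged 1548 against 102 (log2 difference 3.92 ± 0.19, adjusted p = 7.37e-10) and the lipid droplet coat Plin2 510 against 153. Npc1, which exports cholesterol from lysosomes, was lower (509 against 1050). The lower members numbered 3 without KO microglia replicate 1 or 2, without WT macrophages replicate 1 or 2, or with Ddx3y as a covariate. Sterol and fatty acid synthesis genes were mostly not called (19 of 23 tested), with 4 higher, among them Fasn (227 against 135), and 1 higher without KO microglia replicate 3 or without WT macrophages replicate 2. The share higher, 17.4%, was near the 19.0% over all genes tested. Iron and haem genes were higher for 12 of 18 tested and lower for none (median 0.59). Slc40a1, ferroportin, the iron exporter (chromosome 1, 45908068 to 45926523), stood at 3033, 3921 and 4325 in KO microglia and averaged 205 in WT macrophages (log2 difference 4.18 ± 0.12, adjusted p = 4.28e-12). Blvrb, a biliverdin reductase, averaged 306 against 106 and Hfe, a regulator of iron uptake, 591 against 236. KO macrophages averaged 3346 for Slc40a1 and WT microglia 741.

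Genes known from disease-associated microglia divided, with 11 higher, 9 lower and 7 not called of 27 tested (median -0.01). Lgals3, galectin 3, was higher at 484, 558 and 483 in KO microglia and 51, 49.6 and 57.6 in WT macrophages (log2 difference 3.25 ± 0.24, adjusted p = 4.5e-08), Igf1, a growth factor for neurons and oligodendrocytes, averaged 966 against 272 (log2 difference 1.82 ± 0.20, adjusted p = 3.91e-06), and Ccl6 370 against 50. Trem2 and Itgax were in the lower part of the same list. Lysosomal genes were higher for 19 of 37 tested, lower for 7 and not called for 11 (median 0.34). The cathepsins differed among themselves: Ctsb averaged 16835 against 6274 (log2 difference 1.42 ± 0.13, adjusted p = 8.13e-07) and Ctsd 3031 against 13587 (log2 difference -2.16 ± 0.08, adjusted p = 8.04e-11). Neu1, a sialidase (523 against 263), and Atp6v1a, a proton pump subunit (504 against 195), were higher. Of 20 oxidase and redox genes tested, 4 were higher, 5 lower and 11 not called. These shares, 20% and 25%, compare with 19.0% and 16.1% over all genes tested. Ncf1, the p47phox organiser of the NADPH oxidase, was lower at 248, 206 and 212 in KO microglia and 1450, 1601 and 1571 in WT macrophages (log2 difference -2.79 ± 0.10, adjusted p = 1.99e-11), while the membrane subunit Cybb was not called (4423 against 4149, 95% interval -0.44 to 0.63).

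**Figure D5:**
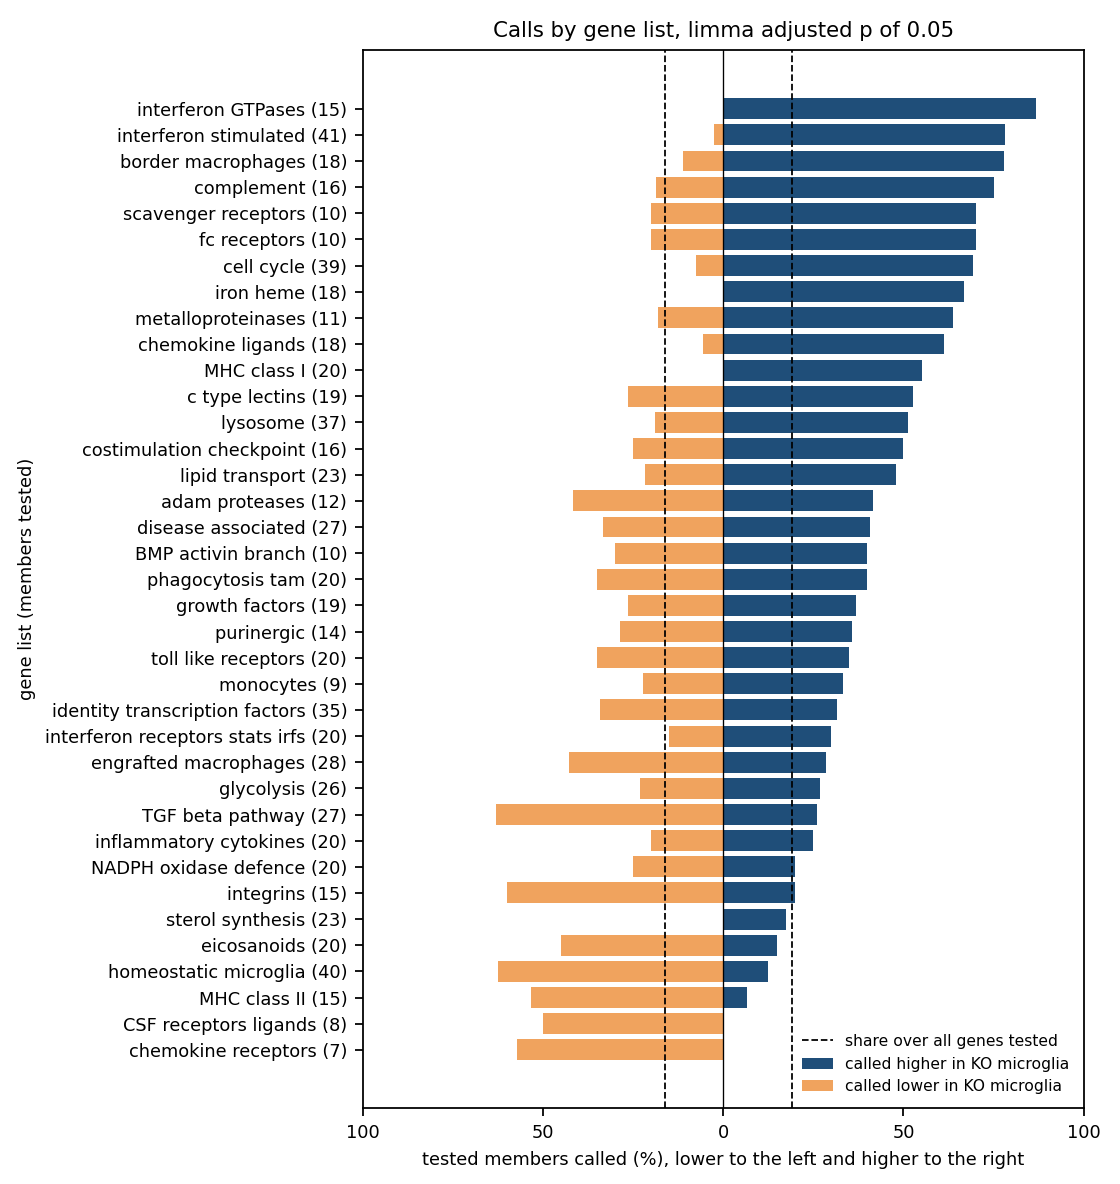
Share of tested members called higher (right) and lower (left) in KO microglia for 37 gene lists, with the number tested in parentheses and dashed lines at the shares over all genes tested, 19.0% higher and 16.1% lower. Interferon GTPases, interferon-stimulated genes and border macrophage genes have the largest shares higher, and TGF-beta pathway, homeostatic microglia and integrin genes the largest shares lower.

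Cell-cycle genes were higher in KO microglia for 27 of 39 tested of 40 listed, lower for 3 and not called for 9 (median 1.30). Mki67, a marker of dividing cells (chromosome 7, 135689784 to 135716361), stood at 1224, 705 and 1029 in KO microglia and 170, 233 and 197 in WT macrophages (log2 difference 2.27 ± 0.31, adjusted p = 3.23e-05). Top2a, a topoisomerase of replicating cells, stood at 302, 197 and 274 in KO microglia and 41, 57.2 and 52.7 in WT macrophages (log2 difference 2.33 ± 0.37, adjusted p = 0.00016), the kinetochore gene Cenpf averaged 196 against 52.7 and Pcna 128 against 48.7. All KO microglia libraries were above all WT macrophage libraries for Mki67 and Top2a. KO macrophages averaged 1272 for Mki67 and WT microglia 172. Ccnd3, cyclin D3, was lower (274 against 632; log2 difference -1.17 ± 0.29, adjusted p = 0.00585). Leaving out 1 library of either group left 22 to 24 of the cell-cycle genes higher.

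Markers of other cell types also differed, and these values stand beside every list above. Astrocyte genes were higher in KO microglia for all 5 tested of 10 listed, with a summed level of 278 to 337 against 55.1 to 71.2, and Slc1a2, a glutamate transporter, averaged 137 against 33.7. WT microglia had the highest sum of this list, at 653 to 729, so it is not a measure of astrocyte material alone. Neuron genes were higher for 6 of 8 tested, most of their sum being the non-coding RNA Meg3 (473 against 34.9), and oligodendrocyte genes for 3 of 5 tested, with Cnp at 123 against 72.6. The 6 neuron genes numbered 1 without KO microglia replicate 2 or WT macrophages replicate 1, 2 without KO microglia replicate 3, and 3 without KO microglia replicate 1 or WT macrophages replicate 3 or with no filter. The B cell list had a summed level of 1739 to 1849 against 989 to 1021, with 2 higher of 4 tested. Cd22 averaged 710 against 80.7, while the defining Cd79a averaged 0.864 in KO microglia. The dendritic cell factor Zbtb46 averaged 107 against 18.9, and Flt3 2.11 against 22.8. Of the neutrophil list, Csf3r alone was tested, and it was lower (700 against 1128). The sum of that list was also highest in WT microglia, at 2415 to 2582. Immediate-early and heat-shock genes, which dissociation can induce, were higher for 8 of 28 tested, lower for 1 and not called for 19 (median 0.43). The share higher was 28.6%, beside 19.0% over all genes tested. Dusp1 averaged 2253 against 765, Ier5 1571 against 579 and Klf6 2633 against 1166. Without KO macrophages replicate 1, or with the 6 libraries alone, 14 of the immediate-early and heat-shock genes were higher. The number was 3 without KO microglia replicate 1 or WT macrophages replicate 3, and 4 without KO microglia replicate 3 or WT macrophages replicate 1. Mitochondrial transcripts were higher for 6 of 8 tested. The part of these cells and signs in the differences above was not tested.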

How the data were processed

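RNA from sorted mouse cells was sequenced in 12 libraries, from total RNA (integrity numbers 7.1 to 10) with a strand-specific kit for very low input, per the labels' protocols. The values deposited by the authors are log2 values for 25904 genes. After removal of the log2 and the added 1, all 310848 values (100%) were whole multiples of a constant of their library (within 0.01 reads). That constant matched a median-of-ratios size factor, so the deposited log2 unit is log2(gene count / size factor + 1). The tools bcl2fastq, CASAVA and STAR, and the build GRCm38, are named per the submitters' processing notes. Counter, annotation, strand setting and versions were not given in the sources used here, so antisense and overlapping genes cannot be told apart. Depth was 2615404 to 6364994 reads in genes, and counting intervals and floors cover counting error only.

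The test covered genes that reached 10 normalized counts in 3 or more of the 12 libraries (12519 tested, 13385 not) with limma 3.58.1 in R 4.3.3 (lmFit, eBayes with trend) on all 12 libraries and 4 group means, with 8 residual and 6.64 prior degrees of freedom. The contrast was KO microglia minus WT macrophages, with Benjamini-Hochberg adjustment over all tested genes. Lists were described by counts and medians, with no set test. Gene symbols and positions are those of GENCODE mouse release 21 (GRCm38), and promoters from RefSeq (GRCm38.p6), matched by symbol for 9029 tested genes. Figures used matplotlib 3.10.9 in Python 3.11.15.

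The comparison and the 49 gene lists were chosen with earlier results of these data known. The rule for named genes took Tgfbr2, Cx3cr1, Adgre1 and Itgam, the 10 largest differences each way and the 5 largest in each position class and direction, among called genes without overlap of libraries and with a mean of at least 100 in the higher group. From each list it also took up to 4 called members in the direction most members took, and up to 2 in the opposite one, with the same mean. Predicted, mitochondrial, ribosomal, immunoglobulin and T cell receptor genes were left out of the largest differences. Some genes that the rule named are left to the counts, among them several whose call depended on 1 library. Genes outside the rule were chosen after their values were seen, namely Apoe, Mrc1, Ms4a7, Smad6, Siglech, Upk1b, Sall3, Flt3, Cd79a, Itgb8, Smad3, Runx1, Crybb1 and Ddx3y, and those said to be not called. The same holds for Id1, Id3, Id4, Jam2, Ecscr, Tgfb1, Tgfb3, Nrros and Klf10. Other scalings, filters, pseudocounts, sample sets and a covariate were tried.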

Additional observations from a re-analysis of the deposited data

How the results depend on the processing

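The number of called genes was 4389 and stayed within 1.5 times of that in every alternative fitted: 4336 with TMM scaling, 4254 with no filter, 4240 with a filter on the 6 libraries, 4572 with a pseudocount of 8, 5423 with the 6 libraries alone, 5314 without KO macrophages replicate 1, 3881 with Ddx3y as a covariate, 4720 with limma-voom on the recovered reads (chosen after seeing the data), and 3495 to 3740 when 1 library of either group was left out. The share called higher was 52.1% to 56.4%. A pseudocount of 8, which shrinks low genes, left 220 genes at least 4-fold higher and 208 lower, with 126 and 113 in the genotype class, 57 and 35 in the origin class, 20 higher genes in the both class, and 17 and 31 in the neither class. With no filter the both class held 54 lower genes and the neither class 101 higher ones. Without KO macrophages replicate 1, which enters the positions, the both class held 21 lower genes and the neither class 84, in ranges of 21 to 35 and 51 to 84 when any of the libraries was left out. With nearness set at 0.75 in place of 0.5, the genotype class held 94 lower genes, the both class 24 higher and 5 lower, and the neither class 147 and 165.

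Genes not called crossed 0 in places: Cybb and Gbp3 were at -0.15 and -0.14 with the covariate, and, when 1 library was left out, Gbp3 ranged from -0.03 to 0.28. Csf1r, Mertk, Spi1, Tnf, Ms4a7, Ifi47 and Ddx3y were called with the 6 libraries alone. Csf1r, Ms4a7, Ifi47 and Ddx3y were also called with limma-voom, and Ms4a7 with a pseudocount of 8. Csf1r and Spi1 were called without KO macrophages replicate 1, and Mertk without WT macrophages replicate 1. The cause was not tested. No named gene that was called changed direction in any alternative run, though Tgfb1, Tgfb3, Nrros and Klf10 were not checked for this. Many named genes were picked for lack of overlap between the libraries. Leaving out 1 library could not change the direction of such genes, so for them that outcome was fixed by the choice. The planned edgeR and DESeq2 fits were not run, since the deposited unit is log2. No paired analysis was possible because the sample titles carry no replicate numbers shared between the groups. Depth limits genes near 1 read, where 1 read was worth 0.804 to 1.27 normalized counts in these 6 libraries.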

Other observations

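Glucose and arachidonic acid metabolism were not described above. Of 26 tested genes of glucose uptake and glycolysis, 7 were higher in KO microglia, 6 lower and 13 not called (median -0.02). These shares, 26.9% and 23.1%, compare with 19.0% and 16.1% over all genes tested. The lower genes included Hk2, hexokinase 2 (396 against 1253; log2 difference -1.66 ± 0.08, adjusted p = 9.85e-10), and the glucose transporter Slc2a1 (40.1 against 126; log2 difference -1.62 ± 0.24, adjusted p = 8.77e-05), while the transporter Slc2a3 was higher (183 against 81; log2 difference 1.17 ± 0.22, adjusted p = 0.000844). WT microglia averaged 190 for Slc2a1 and 34.2 for Slc2a3. Of 20 tested eicosanoid genes, 9 were lower, 3 higher and 8 not called (median -0.41). Alox5, the lipoxygenase that begins leukotriene synthesis, averaged 32.4 against 165 (log2 difference -2.32 ± 0.18, adjusted p = 1.03e-07), Ptgs1, a cyclooxygenase, 428 against 1149 (log2 difference -1.42 ± 0.09, adjusted p = 1.11e-08), and Tbxas1, thromboxane synthase, 789 against 2107. Hpgd, which inactivates prostaglandins, was higher (1048 against 499; log2 difference 1.07 ± 0.08, adjusted p = 8.42e-08). The redox genes Gclc (62.7 against 166) and Ncf4 (210 against 392) were lower.

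Growth factors had 7 higher, 5 lower and 7 not called of 19 tested (median 0.38). Their shares, 36.8% higher and 26.3% lower, compare with 19.0% and 16.1% over all genes tested. Grn, progranulin, was higher (4468 against 2759, log2 difference 0.69 ± 0.10, adjusted p = 8.79e-05). Hgf, hepatocyte growth factor, was lower (74.6 against 200, log2 difference -1.41 ± 0.17, adjusted p = 1.34e-05). Spint1, an inhibitor of proteases that activate the Hgf product, was lower (2.56 against 285; log2 difference -6.49 ± 0.41, adjusted p = 1.08e-08), as was the integrin ligand Npnt (1.19 against 243; log2 difference -6.94 ± 0.62, adjusted p = 4.43e-07). Colony-stimulating factor genes had 4 lower, none higher and 4 not called of 8 tested, and Csf2rb averaged 493 against 672 (log2 difference -0.45 ± 0.10, adjusted p = 0.00244). Of 14 tested purinergic genes, 5 were higher, 4 lower and 5 not called, with the ATP-gated channel P2rx7 at 1901 against 1372 (log2 difference 0.47 ± 0.06, adjusted p = 3.73e-05) and the receptor P2ry13 at 432 against 1121 (log2 difference -1.38 ± 0.16, adjusted p = 5.9e-06). The purinergic shares, 35.7% higher and 28.6% lower, compare with 19.0% and 16.1% over all genes tested. The higher purinergic genes numbered 3 without KO microglia replicate 2, without any single WT macrophage library or with no filter on low values. The lower ones numbered 2 without KO microglia replicate 3 or WT macrophages replicate 1.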
